A study of Rattus norvegicus with 32 samples.

Results

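The response of the dentate gyrus (DG) to methamphetamine (METH) was described from the 8 DG RNA-seq libraries of a series of 32, namely DG METH 1 to 4 and DG Sal 1 to 4, chosen by their sample titles. All 28914 genes of the count files entered, and the 14800 with enough reads in these 8 libraries were tested. The series holds the same comparison in the nucleus accumbens (NAc), subventricular zone (SVZ) and Ammon's horn (CA), with 4 METH and 4 saline libraries in each of the 4 regions.

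The animals were adult male Sprague-Dawley rats, an outbred strain. METH rats received 10 mg/kg of (+)-methamphetamine hydrochloride in the peritoneum 4 times, 2 h apart, and the control rats received saline on the same schedule. Tissue was collected 24 h later. The DG was removed from the hippocampus by hand, and RNA came from a hemisphere of each brain while the other went to a chromatin assay that was not used here. The labels do not tie libraries to animals, so the p-values measure the spread between libraries.

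METH is a psychostimulant that releases dopamine, noradrenaline and serotonin from nerve terminals, and repeated high doses injure monoaminergic endings. The DG is the gate through which cortical input enters the hippocampus. Its principal cells, the granule neurons, express the transcription factor Prox1, send mossy fibres to the CA pyramidal neurons, and are among the few neurons still born in the adult brain.

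Total counts on genes were 11600333 to 14564458 in the saline libraries and 13638981 to 20222158 in the METH libraries, so that 1 read was worth 0.0475 to 0.0877 CPM (a gene's count scaled to the upper-quartile library size, used for all levels here). The library names in the count files tie treatment to sequencing. DG Sal 1, 2 and 4 carry the run name WangT_Bo-RNA3, DG METH 3 and 4 carry Bo-RNA2, and only JJ_021819 holds both treatments (DG Sal 3 with DG METH 1 and 2). Treatment and run name cannot be told apart outside that last run, and inside it DG Sal 3 is the 1 saline library. The number in the library name also differs from the other regions for replicates 1 and 2. DG METH 1 and 2 carry 14 and 15, which belong to saline libraries in the NAc and CA, and DG Sal 1 and 2 carry 20 and 21, which belong to METH libraries there. As DG METH 1 and 2 are the METH libraries of JJ_021819, the doubt about titles extends to values from that run. The titles were followed throughout, and for the main results values from replicates 3 and 4 alone are given as well. That set is not free of doubt either, as it holds DG Sal 3, DG Sal 4 and DG METH 3. These libraries carry markers of other tissues, as described below.

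Several libraries also stood apart in the cell types they hold. The summed level of 15 striatal medium spiny neuron markers was 3123 CPM in DG Sal 3 and 355 to 758 CPM in the other 7 libraries. In DG Sal 3 the dopamine receptor gene Drd1 reached 123 CPM, against 3.64 to 16.6 CPM in the other 7. Neurod6, a transcription factor of forebrain glutamatergic neurons, had a median of 58.4 CPM over the DG saline libraries and 119 CPM in the lowest METH library, but 0.0635 CPM in the lowest saline library (CPM on the scale of all 32 libraries). DG Sal 3 carried striatal markers at a level above every other DG library, against its label.

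The 10 choroid plexus markers summed to 8418 CPM in DG METH 3 and 3276 CPM in DG Sal 4, and to 56.5 to 323 CPM in the other 6. Ttr, the transthyretin gene of the choroid plexus, gave most of this, with 5437 CPM in DG METH 3 and 1842 CPM in DG Sal 4. DG Sal 4 also carried medial habenula markers at 331 CPM, where the other 7 libraries had 53.1 to 104 CPM. Oligodendrocyte markers ranged from 3669 to 14127 CPM in saline and from 3308 to 16388 CPM after METH, so their spread was wide in both groups.

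Granule neuron markers differed among libraries and with treatment. The summed level of the 13 granule markers found was 818, 461, 530 and 437 CPM in DG Sal 1 to 4 and 1396, 1191, 496 and 1149 CPM in DG METH 1 to 4. DG METH 1, 2 and 4 lay above all saline libraries and DG METH 3 lay among them. Prox1 was 151, 26.2, 30.0 and 76.2 CPM in saline and 313, 272, 59.6 and 207 CPM after METH. Of 11 granule markers tested, 3 were higher at an unadjusted p under 0.05 (Il16, Prox1 and Sema5a) and none was lower, with a median log2 fold change of 1.00. Of 12 CA pyramidal markers, 3 were higher (Bok, Grik4 and Rgs14) and none was lower, with a median of 0.47. All 14 striatal markers tested were below 0, 1 of them at an unadjusted p under 0.05, with a median of -2.02 that became -0.02 without DG Sal 3. In saline libraries the DG label was not borne out by a higher level of the granule marker Prox1. The median Prox1 level of saline libraries was 52.1 CPM for the DG and 167 CPM for the CA (scale of all 32 libraries). After METH the order of the medians was the other way, with 236 CPM for the DG and 72.6 CPM for the CA. The ranges of the regions overlapped each time. In saline they were 26.1 to 151 CPM (DG) and 33.2 to 296 CPM (CA). After METH they were 58.9 to 312 CPM (DG) and 52.6 to 159 CPM (CA). In bulk tissue, fewer cells of a type and less RNA per cell cannot be told apart, and the part of these marker levels in the results was not tested.

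**Figure D1:**
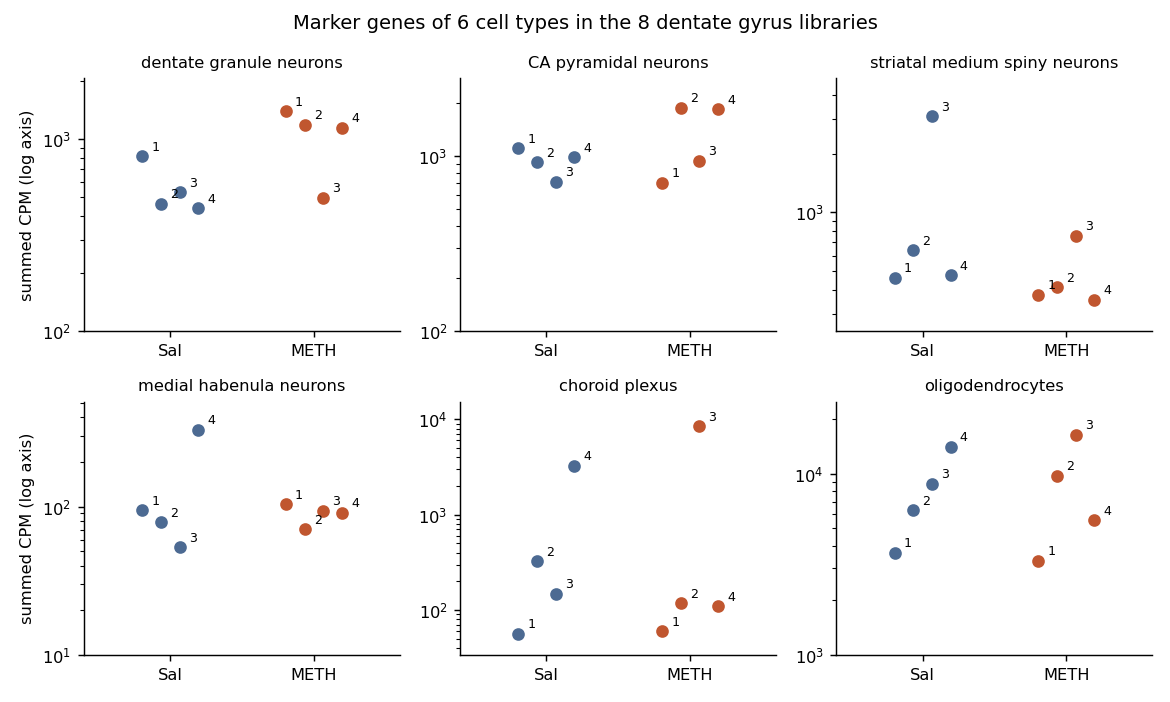
Summed CPM (log axis) of marker genes of 6 cell types in each DG library, with the replicate number beside each point. DG Sal 3 is highest for striatal markers (3123 CPM), DG Sal 4 for habenular markers (331 CPM), and DG METH 3 for choroid plexus markers (8418 CPM).

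No gene passed the threshold of the study, an FDR under 0.01 with more than 2-fold change, in edgeR's quasi-likelihood test. At an FDR under 0.05 the count was 1 gene, Cxxc4 (0.00676% of genes tested), and this call was lost in 16 of 24 alternatives and in 7 of the 8 fits without 1 library. With an unadjusted p below 0.05, 940 genes had higher levels after METH (6.35%) and 950 had lower levels (6.42%), 12.8% in all. Replicates 3 and 4 alone gave 600 and 433. In 587 genes (3.97%) all 4 METH libraries lay above all 4 saline libraries, and in 502 genes (3.39%) all lay below, together 7.36%. These are called separated genes here. Over all genes in both fits, 56.7% had the same sign in replicates 1 and 2 as in replicates 3 and 4. DESeq2 counted 120 genes at the study's threshold and edgeR's likelihood ratio test counted 88, against 0 in the quasi-likelihood test. The common coefficient of variation between replicates was 0.311.

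The genes with the lowest FDR shared tight replicates. Cxxc4, on chromosome 2 (239415046 to 239439568, rn6), encodes a CXXC zinc finger protein that restrains Wnt signalling at Dishevelled. It was 56.9, 61.5, 62.4 and 57.9 CPM in DG Sal 1 to 4 and 32.8, 31.9, 34.6 and 31.7 CPM in DG METH 1 to 4. The groups did not overlap, and the log2 fold change was -0.87 ± 0.08 (SE, FDR = 0.0465). Its FDR ranged from 0.0329 (without DG Sal 1) to 0.329 (without DG METH 1) when 1 library was left out, and was 0.0512 with TMM normalization. Its log2 fold change was -0.87 in replicates 1 and 2 alone and -0.86 in replicates 3 and 4 alone. Within the run that holds both treatments, where DG Sal 3 is the 1 saline library, it was -0.94. Groups that do not overlap keep their direction in any set of these libraries, so the direction here is no separate support.

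Il1rapl2, an interleukin-1 receptor-like gene of synapses on chromosome X (108287068 to 109851047), was also lower. Its levels were 7.16, 9.29, 5.98 and 6.47 CPM in saline and 2.10, 2.41, 2.04 and 1.66 CPM after METH, a log2 fold change of -1.81 ± 0.21 (SE, FDR = 0.0646). The highest METH library lay well below the lowest saline library.

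Higher with METH were a matrix and a signalling gene. Gpc1, which encodes the heparan sulfate proteoglycan glypican-1 (chromosome 9, 99998275 to 100026818), was 103, 90.3, 105 and 90.1 CPM in saline and 186, 160, 205 and 206 CPM after METH. Its log2 fold change was 0.97 ± 0.11 (SE, FDR = 0.0646). Arhgef25, a guanine nucleotide exchange factor (chromosome 7, 70469312 to 70476340), was 62.2, 60.9, 62.1 and 52.0 CPM in saline and 129, 144, 109 and 166 CPM after METH. Its log2 fold change was 1.21 ± 0.14 (SE, FDR = 0.0646). The lowest METH library of each gene stood well clear of the highest saline library.

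A calcium sensor and a postsynaptic scaffold followed. Hpca encodes hippocalcin, the neuronal calcium sensor named for its abundance in the hippocampus (chromosome 5, 147294820 to 147303346). It was 158, 176, 139 and 115 CPM in saline and 390, 437, 456 and 704 CPM after METH, a log2 fold change of 1.76 ± 0.22 (SE, FDR = 0.0849). Homer3, which links group I metabotropic glutamate receptors to the postsynaptic density (chromosome 16, 20881518 to 20890949), was 16.0, 12.6, 10.2 and 16.5 CPM in saline and 47.6, 30.0, 53.1 and 53.9 CPM after METH. Its log2 fold change was 1.74 ± 0.23 (SE, FDR = 0.114). These 6 genes kept an unadjusted p of at most 0.00029 when any library was left out. They were chosen by their FDR in these same libraries, so this is no separate support.

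**Figure D2:**
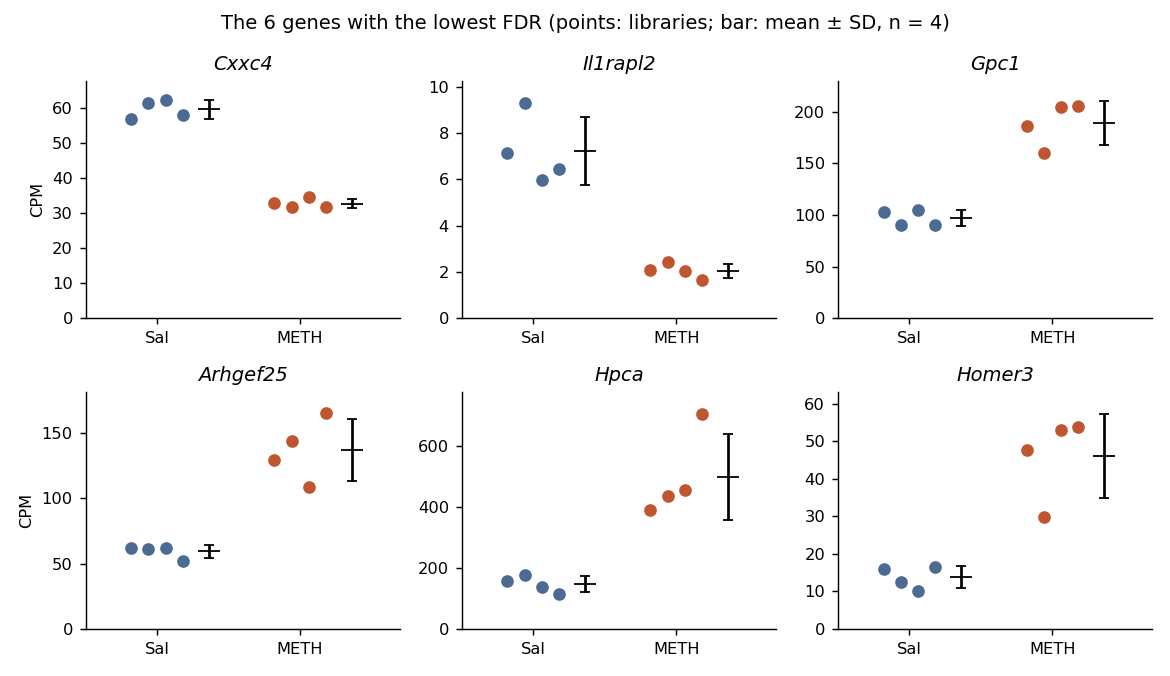
CPM of the 6 genes with the lowest FDR in each DG library, with mean ± SD of 4 libraries per group. In each gene the METH and saline points do not overlap, from Cxxc4 (59.7 ± 2.65 CPM in saline, 32.7 ± 1.33 CPM after METH) to Homer3 (13.8 ± 2.99 and 46.2 ± 11.1 CPM).

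The 250 bases before the start of the lower Cxxc4 and of the higher Hpca are shown because, among the 6 genes above, they have the lowest FDR in each direction with an entry in the RefSeq table. The windows are from GRCr8, not rn6, at chr2:225338339-225338588 (+ strand) and chr5:146748359-146748608 (- strand), written 5′ to 3′ on the gene's strand. Capitals mark TGACG or its reverse complement, the core of the site bound by CREB-family factors.
Cxxc4: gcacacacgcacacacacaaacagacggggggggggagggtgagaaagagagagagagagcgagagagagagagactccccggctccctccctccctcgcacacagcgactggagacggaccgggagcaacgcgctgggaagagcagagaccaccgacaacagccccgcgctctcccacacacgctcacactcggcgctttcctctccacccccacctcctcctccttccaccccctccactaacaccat
Hpca: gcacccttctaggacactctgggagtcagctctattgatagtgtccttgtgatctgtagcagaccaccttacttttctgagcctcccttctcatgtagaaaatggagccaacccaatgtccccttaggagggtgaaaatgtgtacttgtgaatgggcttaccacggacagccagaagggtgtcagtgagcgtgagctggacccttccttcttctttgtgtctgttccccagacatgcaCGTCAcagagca
The Hpca window holds TGACG on the opposite strand 12 bases before the start, and the Cxxc4 window holds none. Over both strands TGACG was in 27.5% of the 9826 promoters of tested genes, in 28.1% of 416 promoters of the genes with all METH libraries above saline and in 28.4% of 313 promoters of those below. The canonical E-box CACGTG was in 8.03%, 7.69% and 8.31%, and the E-box CAGATG in 9.22%, 7.45% and 8.95%. The shares of the genes in each direction lay close to those of all tested genes.

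The 12 separated genes named for the highest fold change were mostly high in the CA. Among them 11 had a saline level in the CA more than 2-fold above the mean of the NAc and SVZ (on CPM + 1), as had 476 of all 14800 genes tested, the exception being Ikzf3. Il16, which encodes a cytokine precursor with a neuronal form and is a granule neuron marker, was 26.7, 5.79, 3.99 and 4.53 CPM in saline and 81.1, 30.8, 49.9 and 72.8 CPM after METH. Its log2 fold change was 2.52 ± 0.66 (SE). Cpne4, a calcium-dependent membrane-binding copine, was 89.4, 52.9, 40.0 and 28.4 CPM in saline and 322, 127, 333 and 351 CPM after METH. The lowest METH value of Cpne4 lay above the highest saline value, and its log2 fold change was 2.43 ± 0.43 (SE).

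A receptor subunit, a calcium-binding protein and a peptide receptor had similar fold changes. Shisa6, an auxiliary subunit of AMPA-type glutamate receptors, was 39.9, 10.6, 9.33 and 14.7 CPM in saline and 92.2, 69.2, 62.9 and 101 CPM after METH, a log2 fold change of 2.13 ± 0.46 (SE). Cabp7, a calcium-binding protein of the calmodulin family, had a log2 fold change of 2.31 ± 0.58 (SE). Mas1, a receptor for an angiotensin fragment, was at 0.837 to 25.4 CPM in saline and 32.5 to 54.5 CPM after METH. DG Sal 3 gave the lowest saline value of Mas1, and DG Sal 1 the highest, so the spread within saline exceeded the gap between the groups.

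The rest of the 12 were secreted, transport or low-abundance genes. Cxcr1, a chemokine receptor, had the highest log2 fold change, 3.13 ± 0.97 (SE), at levels of 0.0643 to 1.93 CPM in saline and 2.61 to 14.03 CPM after METH. The serine proteases Klk11 and Klk8 (neuropsin, which cleaves synaptic adhesion proteins) had 2.77 ± 0.78 and 2.20 ± 0.95. The sulfotransferase Chst9 had 2.62 ± 0.88, the zinc finger gene Ikzf3 2.24 ± 0.58, the sodium-proton exchanger Slc9a4 2.11 ± 0.73, and Rspo2, a secreted enhancer of Wnt signalling, 2.06 ± 0.80 (log2 fold change ± SE). Klk11 and Klk8 had 0 reads in DG Sal 3, and Rspo2 was at 1.03 CPM there against 17.5 to 51.7 CPM in the other saline libraries. The unadjusted p of Klk8, Rspo2 and Mas1 exceeded 0.05 when the least favourable library was left out (DG METH 4 for Klk8, DG Sal 2 for the others).

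The separated genes with the lowest fold change were of other kinds. Efna5, the membrane-bound guidance ligand ephrin-A5, was 5.27, 16.0, 11.8 and 15.2 CPM in saline and 1.17, 3.58, 2.94 and 1.66 CPM after METH. Its log2 fold change was -2.37 ± 0.45 (SE). Vwc2l, a secreted brorin-like protein, was 13.6, 6.31, 8.24 and 8.82 CPM in saline and 1.73, 2.05, 2.33 and 0.511 CPM after METH, a log2 fold change of -2.47 ± 0.44 (SE). In both genes the highest METH value lay below the lowest saline value, as the choice of separated genes requires.

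Rgs4, which shortens G protein signals, was 247, 486, 83.0 and 238 CPM in saline and 41.7, 70.2, 71.7 and 35.4 CPM after METH, a log2 fold change of -2.27 ± 0.50 (SE). Tacr3, the neurokinin B receptor, had a log2 fold change of -2.37 ± 0.59, and Gfra2, the neurturin receptor, of -2.18 ± 0.55 (SE). DG Sal 3 was the lowest saline library for Rgs4 and Tacr3 and the highest for Gfra2. Within the run that holds both treatments, where DG Sal 3 is the 1 saline library, the log2 fold change of Rgs4 was -0.57. Those of Tacr3 and Gfra2 were -1.65 and -2.25 there. The shared direction follows from the choice of separated genes.

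The others rested more on single libraries. Postn, the matrix protein periostin, had the lowest log2 fold change, -3.73 ± 1.04 (SE), with 1.02, 7.19, 0.772 and 19.6 CPM in saline and 0.319 to 0.712 CPM after METH. Slc24a1, a sodium-calcium exchanger, was 3.15, 3.33, 15.9 and 34.7 CPM in saline and 1.66 to 2.90 CPM after METH. Ccdc158 and Barx2, a homeobox gene, each owed most of their saline mean to a single library (9.57 CPM in DG Sal 4 and 9.03 CPM in DG Sal 2). Without DG Sal 3, DG Sal 4 and DG METH 3 the log2 fold changes were -0.58 in Slc24a1 and -0.83 in Ccdc158, against -2.72 and -2.59 in all 8 libraries. Gli1, the transcription factor at the end of the Hedgehog pathway, had -2.29 ± 0.59, the secreted guidance ligand Sema3a -2.26 ± 0.66 and the sialidase Neu2 -2.24 ± 0.68 (log2 fold change ± SE).

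The direction of separation followed the level of a gene in other brain regions, measured in saline libraries that the DG comparison did not use. Among the 476 genes at least 2-fold higher in the CA than in the NAc and SVZ, 81 had all METH libraries above saline and 1 had all below (17.0% and 0.210%, against 3.97% and 3.39% of all genes tested). Among the 460 genes more than 2-fold lower in the CA, 1 had all METH libraries above and 29 had all below (0.217% and 6.30%). Of the 8057 genes within 0.25 on the log2 scale, 264 lay above and 238 below (3.28% and 2.95%). The median level in the CA over the other regions (log2) was 0.27 in the 587 genes above, -0.24 in the 502 below and -0.07 in all tested genes.

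DG Sal 3 moved with this pattern. Without it, 17.0% of the CA-high genes lay above and 5.25% below, beside 6.82% and 6.48% of all genes tested, and of the CA-low genes 3.91% lay above and 6.52% below. Without DG Sal 3, DG Sal 4 and DG METH 3, 38.0% of the CA-high genes lay above and 10.9% below, and of the CA-low genes 10.4% lay above and 21.5% below, beside 19.9% and 15.4% of all genes tested. In replicates 3 and 4 alone, which keep DG Sal 3, 55.5% of the CA-high genes lay above and 29.8% of the CA-low genes lay below, beside 19.4% and 19.8%. The share of CA-high genes above saline was over the background in each of these sets of libraries, while the share of CA-low genes below saline was close to it when DG Sal 3 alone was left out. The part of tissue makeup in these shares was not tested.

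**Figure D3:**
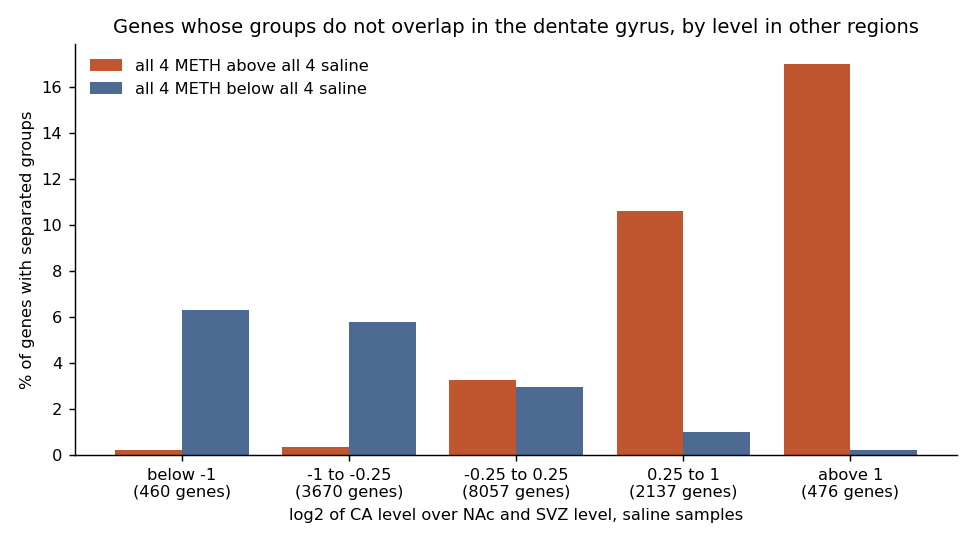
Share of genes (%) in which all 4 METH libraries lie above (orange) or below (blue) all 4 saline libraries of the DG, in 5 bins of the log2 level in the CA over the NAc and SVZ. The orange share runs from 0.217% in the lowest bin to 17.0% in the highest, and the blue share from 6.30% to 0.210%.

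Axon guidance genes were among the lists with the largest share of members past an unadjusted p of 0.05. Over all 14800 genes tested, 6.35% were higher and 6.42% lower at that threshold, and 7100 lay above 0 and 7700 below. These shares are the background for each list below. Of 32 semaphorin, netrin and Slit genes tested, 7 were higher and 3 lower, and their median was 0.36 on the log2 scale (-0.01 over all genes tested). Receptors were among the higher members. The semaphorin receptor Nrp1 was 130, 43.6, 63.0 and 66.9 CPM in saline and 237, 163, 155 and 238 CPM after METH, a log2 fold change of 1.39 ± 0.33 (SE). The co-receptor Plxna1 was 182, 184, 164 and 153 CPM in saline and 242, 256, 285 and 266 CPM after METH (0.62 ± 0.10). Both had separated groups, and Plxna4 had a log2 fold change of 0.97 ± 0.27 with groups that overlapped. Sema3a, a ligand of Nrp1, was lower as given above. Sema5a, a ligand that is also a granule neuron marker, was 331, 157, 144 and 172 CPM in saline and 568, 520, 222 and 532 CPM after METH.

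Among 17 ephrins and Eph receptors, 4 members had higher and 3 had lower levels by the same threshold. The receptor Epha4 was 335, 427, 222 and 213 CPM in saline and 578, 557, 493 and 706 CPM after METH, a log2 fold change of 0.96 ± 0.24 (SE). Epha3 had 0.91 ± 0.31 with overlapping groups. The ligand Efnb2 was 61.6, 70.2, 88.0 and 45.9 CPM in saline and 31.9, 27.6, 20.8 and 15.5 CPM after METH, a log2 fold change of -1.47 ± 0.26 (SE), and Efna5 was lower as above. Groups were separated in Epha4, Efnb2 and Efna5. In the Wnt pathway 4 of 34 members were higher and 4 lower. The secreted Wnt-inactivating enzyme Notum had a log2 fold change of -1.26 ± 0.30 and the ligand Wnt4 of 1.74 ± 0.58 (SE), while Wnt4 ranged from 7.46 to 49.3 CPM among saline libraries.

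Receptors and channels moved in both directions. Of 24 glutamate receptor genes, 3 were higher and 4 lower, with a median log2 fold change of 0.01. Gria1, the GluA1 subunit of AMPA receptors, was 396, 155, 282 and 169 CPM in saline and 570, 597, 349 and 685 CPM after METH (1.14 ± 0.33). Grik4, a kainate receptor subunit that is also a CA pyramidal marker, was 43.7, 29.1, 33.1 and 33.9 CPM in saline and 109, 52.8, 110 and 89.4 CPM after METH (1.37 ± 0.24). The Grik4 groups were separated, whereas DG Sal 1 exceeded DG METH 3 for Gria1. Lower were Grin3a, an NMDA receptor subunit that reduces calcium entry (-1.28 ± 0.32), the kainate subunit Grik3 (-1.11 ± 0.32) and the presynaptic metabotropic receptor Grm4 (-1.12 ± 0.28).

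Of 13 GABA-A receptor subunits, 1 was higher and 4 were lower (7.69% and 30.8%, beside 6.35% and 6.42% of all genes tested). Gabra5, the subunit of extrasynaptic receptors typical of the hippocampus, was 134, 52.1, 44.1 and 59.9 CPM in saline and 213, 135, 171 and 227 CPM after METH, a log2 fold change of 1.36 ± 0.36 (SE). Gabra3 was 66.9, 60.4, 62.9 and 46.4 CPM in saline and 31.4, 26.1, 21.2 and 10.0 CPM after METH, a log2 fold change of -1.41 ± 0.31 (SE). These alpha subunit genes lay on opposite sides, with separated groups in both. Gabrb2, a beta subunit, was lower with overlapping groups (-0.56 ± 0.20).

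Among 55 potassium channel genes, 6 were higher and 8 lower, with a median of -0.17. The leak channel gene Kcnk3 was 16.7, 21.5, 14.7 and 13.9 CPM in saline and 3.64, 8.26, 5.18 and 4.28 CPM after METH, a log2 fold change of -1.65 ± 0.27 (SE). The sodium-activated channel Kcnt1 (-1.49 ± 0.35) and the modulatory subunit Kcnf1 (-2.02 ± 0.55) were also separated, and Kcnip2, a partner of A-type channels, was higher (1.21 ± 0.35). Of 27 calcium channel genes, 4 were higher and 4 lower. The L-type channel Cacna1c (0.80 ± 0.21) and the beta subunit Cacnb2 (0.62 ± 0.14) were higher, and the beta subunit Cacnb4 (-0.77 ± 0.20) and the release channel Itpr3 (-0.58 ± 0.12) were lower (log2 fold change ± SE), each with separated groups.

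Monoamine receptors bear on the transmitters that METH releases. Of 23 tested, 1 was higher and 5 lower (4.35% and 21.7%, beside 6.35% and 6.42% of all genes tested). Their median was -0.45 on the log2 scale. That median was -0.09 without DG Sal 3, the library with striatal markers, and -0.75 without DG Sal 4. The serotonin receptor Htr5a was 15.3, 12.1, 11.3 and 7.89 CPM in saline and 8.21, 7.02, 6.41 and 6.13 CPM after METH (-0.75 ± 0.21), so only DG Sal 4 and DG METH 1 crossed. The noradrenaline receptor Adra2a (-1.20 ± 0.43) and the histamine receptor Hrh3 (-0.74 ± 0.27) were lower, and Hrh1 was higher (0.68 ± 0.19). Drd1 had a log2 fold change of -2.24 ± 1.04 (unadjusted p = 0.061), which was -0.23 without DG Sal 3. Of 23 synaptic vesicle genes, 1 was higher and 3 lower. Rims2, an active zone scaffold (-0.44 ± 0.11), and Napa, which takes apart SNARE complexes (0.66 ± 0.18), had separated groups.

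**Figure D4:**
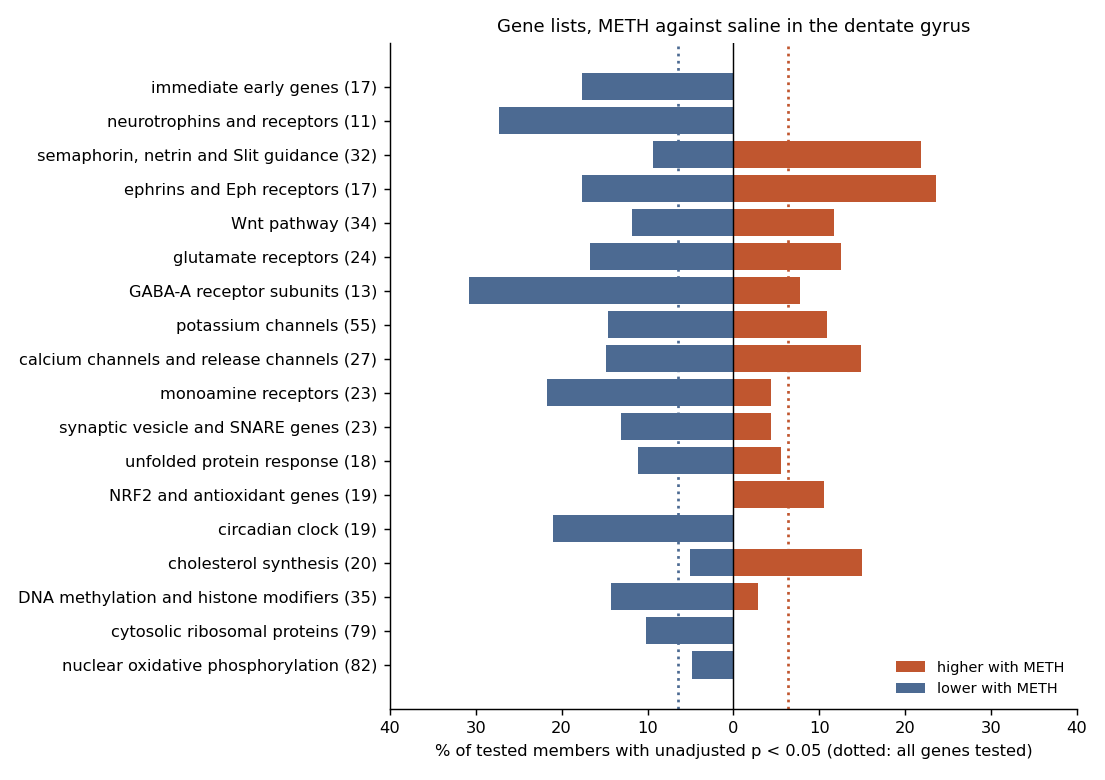
Share of tested members (%) with an unadjusted p under 0.05 in 18 gene lists, higher (orange, to the right) or lower (blue, to the left) with METH, with the number tested in brackets. Dotted lines give the shares of all genes tested (6.35% higher and 6.42% lower). The clock, immediate early, neurotrophin, ribosomal and oxidative phosphorylation lists extend to the left only.

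Activity and clock genes leaned to lower levels. None of 17 immediate early genes was higher at an unadjusted p under 0.05 and 3 were lower (17.6%, beside 6.42% of all genes tested). Their median log2 fold change was -0.45. Fosb, a subunit of the AP-1 factor, was 14.8, 12.3, 5.79 and 5.79 CPM in saline and 5.99, 4.97, 6.08 and 5.43 CPM after METH (-0.78 ± 0.32). Egr2 had -0.91 ± 0.40 and Dusp1, a MAP kinase phosphatase, -0.87 ± 0.37, but Dusp1 was 0.41 within the run that holds both treatments. The median of the list was -0.80 in replicates 1 and 2, 0.09 in replicates 3 and 4, -0.18 without DG Sal 1 and -0.25 without DG METH 1. Fos was not past the threshold (-1.01 ± 0.49, unadjusted p = 0.069).

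Of 19 clock genes, none was higher and 4 were lower (21.1%, beside 6.42% of all genes tested). In the list 17 were below 0, beside 7700 of all 14800 genes, and the median log2 fold change was -0.30. Npas2, a partner of the core clock activator, was 138, 121, 76.6 and 99.8 CPM in saline and 33.1, 83.0, 44.4 and 55.7 CPM after METH (-1.01 ± 0.29). The clock output factors Hlf (-1.29 ± 0.40) and Dbp (-0.64 ± 0.25) and the repressor Nr1d1 (-0.84 ± 0.30) were lower as well, although Hlf was 0.37 within the run that holds both treatments. Of these 4 genes none had separated groups. The clock median stayed below 0 in replicates 1 and 2 (-0.48), in replicates 3 and 4 (-0.24) and without the 3 libraries with extra markers (-0.50). The core activator Arntl had -0.24 ± 0.12 (unadjusted p = 0.076).

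Stress pathways showed small shifts in few members. In the unfolded protein response, 1 of 18 was higher and 2 lower, all with separated groups. These were Asns, asparagine synthetase (0.49 ± 0.12), Chac1, which degrades glutathione (-0.65 ± 0.14), and the phosphatase subunit Ppp1r15a (-0.30 ± 0.13). In the NRF2 list 2 of 19 were higher and none lower. Slc7a11, the cystine transporter that feeds glutathione synthesis, was 127, 100, 111 and 128 CPM in saline and 241, 189, 144 and 185 CPM after METH (0.70 ± 0.16), and glutathione reductase Gsr had 0.29 ± 0.10. Both were separated, while Hmox1, the classic oxidative stress gene, had 0.36 ± 0.22 (unadjusted p = 0.14). Hsf2 was the member of 17 chaperone genes past the threshold (0.49 ± 0.14).

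Of 14 glucocorticoid targets, 2 were higher and 1 lower. Nr3c2, the mineralocorticoid receptor of hippocampal neurons, was 80.7, 37.2, 45.2 and 58.2 CPM in saline and 130, 133, 99.3 and 200 CPM after METH, a log2 fold change of 1.34 ± 0.28 (SE). It had separated groups and is 1 of the genes with a higher level in the CA (log2 level over the NAc and SVZ, 1.38). Errfi1 had 0.39 ± 0.14 and Arl4d -0.33 ± 0.14, and Fkbp5, the usual reporter of the glucocorticoid receptor, had 0.42 ± 0.21 (unadjusted p = 0.073). In cholesterol synthesis 3 of 20 members were higher and 1 lower. Dhcr7, the last enzyme of the pathway, was 24.9, 25.5, 21.2 and 20.8 CPM in saline and 31.5, 29.7, 29.8 and 28.7 CPM after METH (0.37 ± 0.10). Lss was higher (0.41 ± 0.13) and Pmvk lower (-0.79 ± 0.33), with overlap.

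Growth factor genes were few. Of 11 neurotrophins and receptors, none was higher and 3 were lower, although the median log2 fold change was 0.45. The lower members were Gfra2, Ngfr (-2.67 ± 0.91) and Vgf (-0.72 ± 0.28). Ngfr was at 11.0 CPM in DG Sal 3 and at 0.309 to 2.77 CPM in the other libraries. Bdnf, made by granule neurons, was 45.9, 18.5, 1.87 and 8.82 CPM in saline and 52.1, 31.2, 33.3 and 63.1 CPM after METH, a difference that was not past the threshold (1.26 ± 0.75, unadjusted p = 0.13).

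Few glial markers were past the threshold. Gfap, the intermediate filament of astrocytes that marks their reaction to METH injury, was 462, 587, 226 and 525 CPM in saline and 564, 707, 884 and 841 CPM after METH, a log2 fold change of 0.74 ± 0.29 (SE, unadjusted p = 0.032). DG Sal 2 exceeded DG METH 1, so the groups overlapped. It was the 1 of 10 reactive astrocyte genes past the threshold, and the median of the 10 was 0.00. Itgam, the CD11b integrin of microglia, was 13.2, 13.2, 13.4 and 11.6 CPM in saline and 18.9, 18.1, 23.4 and 16.7 CPM after METH, separated, with a log2 fold change of 0.58 ± 0.13 (SE). The remaining 11 microglial markers were not past the threshold, though all 12 were above 0 (median 0.14), beside 7100 of all 14800 genes tested. No oligodendrocyte, ependymal or choroid plexus marker was past an unadjusted p of 0.05.

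Markers of newborn neurons and of dividing cells gave no common direction. Of 12 neurogenesis genes none was higher and 1 was lower, Stmn1, which destabilises microtubules (-0.94 ± 0.31, overlapping). Of 13 cell cycle genes 1 was higher, Mki67, which was 9.21, 6.93, 12.3 and 10.6 CPM in saline and 21.5, 17.2, 8.40 and 16.5 CPM after METH (0.70 ± 0.29). DG METH 3 lay among the saline libraries for Mki67, and in the count matrix of the series its log2 fold change was -0.56.

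Of 79 cytosolic ribosomal protein genes none was higher and 8 were lower (10.1% of the list, beside 6.42% of all genes), 6 of them separated, and the median was -0.07. Rps21 (-0.48 ± 0.10), Rpl24 (-0.28 ± 0.08) and Rps29 (-0.97 ± 0.22) were lower. Ribosomal genes share sequence with their many pseudogenes, so single members are uncertain. Of 82 nuclear genes of oxidative phosphorylation none was higher and 4 were lower, a share of 4.88% that lies below the 6.42% of all genes. Among the 4 was Ndufaf5, an assembly factor of complex I (-0.27 ± 0.10).

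Of 35 DNA methylation and histone modifier genes, 1 was higher and 5 were lower. The de novo methyltransferase Dnmt3a was 76.8, 81.0, 87.1 and 77.6 CPM in saline and 67.7, 69.4, 62.6 and 64.9 CPM after METH (-0.29 ± 0.08). The demethylating enzyme Tet2 (-0.28 ± 0.10) and the deacetylase Hdac11 (-0.81 ± 0.29) were lower with separated groups, and Hdac5 was lower with overlap (-0.34 ± 0.14). Dpf3, a reader of acetylated histones in the BAF complex, was 5.04, 3.60, 4.25 and 4.198 CPM in saline and 8.33, 8.33, 5.65 and 12.9 CPM after METH (1.04 ± 0.26). Hdac11 reached 280 CPM in DG Sal 3, against 123 to 139 CPM in the other saline libraries, and its log2 fold change without the 3 libraries with extra markers was -0.54.

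Some genes that the study names were described in the same way. Ptprn2, a dense-core vesicle protein, was 454, 379, 419 and 338 CPM in saline and 278, 288, 246 and 237 CPM after METH (-0.60 ± 0.12), with separated groups. Prdm8, a repressor of cortical and hippocampal neurons, was also separated but with a wide spread, 0.837 to 33.6 CPM in saline and 34.9 to 65.9 CPM after METH (1.53 ± 0.77, unadjusted p = 0.081). Nrn1, an activity-regulated surface protein, had 0.76 ± 0.71 (unadjusted p = 0.31), and Tshz2, a zinc finger factor, -2.28 ± 0.71 with overlapping groups. As these genes were picked by the study on the same libraries, their direction is not independent evidence.

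The METH effect in the DG was then set against the mean METH effect of the NAc, CA and SVZ, in 1 fit of all 32 libraries with 16122 genes. It differed in 86 genes at an FDR under 0.05 (0.533%), 50 with a positive and 36 with a negative difference. At an unadjusted p under 0.05 there were 1075 positive (6.67%) and 1327 negative differences (8.23%). In the other regions the METH effect had an unadjusted p under 0.05 in 2.7% of genes (NAc), 3.65% (CA) and 5.16% (SVZ). The DG effect had the opposite sign to each of the other 3 regions in 67.4% of the 86 genes and in 21.5% of all genes, a contrast that the choice by difference itself favours. With the SVZ METH libraries of 1 number summed, 33 genes were left at an FDR under 0.05. Arhgef25 was the gene past an FDR of 0.01 with more than 2-fold, with a difference of 1.67 ± 0.26 on the log2 scale (FDR = 0.00849). Its log2 fold change was -0.03 in the NAc, -0.76 in the CA and -0.63 in the SVZ. Cxxc4 differed by -1.02 ± 0.22 (FDR = 0.035), with 0.00, 0.28 and 0.17 in the NAc, CA and SVZ. The largest differences among separated genes missed an FDR of 0.05. They were Lrrc10b (2.98 ± 1.10), Il16 (2.92 ± 0.74), Ikzf3 (2.78 ± 0.77) and Hpca (2.71 ± 0.79) upward, and Postn (-3.54 ± 0.96), Barx2 (-3.06 ± 0.89), Vwc2l (-2.85 ± 0.76) and Tacr3 (-2.76 ± 0.85) downward. Replicates 3 and 4 alone, in all regions, gave 0 genes at an FDR under 0.05 and 1864 at an unadjusted p under 0.05. Leaving out DG METH 4 also gave 0 in edgeR's quasi-likelihood test, with 1879 at an unadjusted p under 0.05, and leaving out DG Sal 1 gave 387 at an FDR under 0.05.

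Over all replicates, genes separated in the DG leaned the other way in the CA, whose libraries the DG comparison did not use. Of the 587 genes above saline in the DG, 76.5% had a CA log2 fold change below 0 (48.5% of all genes tested), with a median of -0.12. Of the 502 below saline in the DG, 69.7% were above 0 in the CA (51.5% of all genes tested), with a median of 0.09. This opposition was seen in replicates 1 and 2 and hardly in replicates 3 and 4. The sets differ in more than 1 way. In replicates 1 and 2 the DG library numbers go against the titles. Replicates 3 and 4 hold DG Sal 3, DG Sal 4 and DG METH 3, which carry markers of other tissues. The parts of these features cannot be told apart and were not tested. In replicates 1 and 2 of both regions, 71.3% of 3657 genes above saline in the DG were below 0 in the CA (50.5% of all genes) and 71.3% of 2963 genes below saline were above 0 (49.5%). In replicates 3 and 4, 51.7% of 2868 genes above saline were below 0 (46.9% of all genes), and 51.5% of 2925 genes below saline were above 0 (53.1%). In the NAc the shares were close to the background, with 53.7% and 49.8% above 0 beside 53.9% of all genes. In the SVZ they were 52.98% and 46.0%, beside 51.8%. Prox1 itself had a log2 fold change of 1.59 in the DG and -0.90 in the CA. Genes are not independent replicates, so these shares carry no p.

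**Figure D5:**
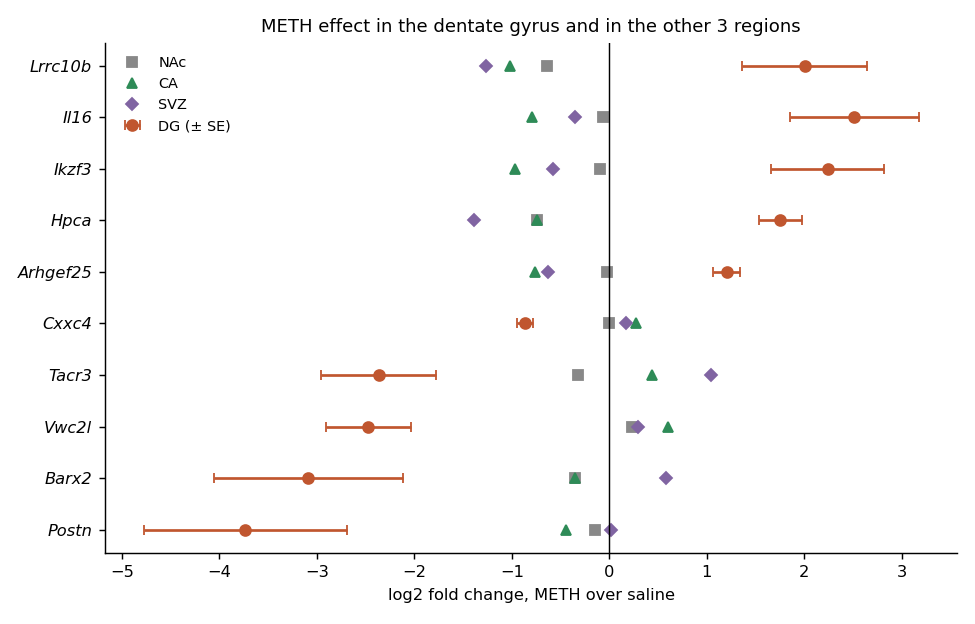
Log2 fold change of METH over saline for 10 genes in the DG (orange, ± SE) and in the NAc, CA and SVZ (grey, green and purple). Lrrc10b, Il16, Ikzf3, Hpca and Arhgef25 are positive in the DG and below 0 in the other regions, while Cxxc4 is -0.87 in the DG and between 0.00 and 0.28 elsewhere.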

How the data were processed

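Total RNA was depleted of ribosomal RNA and sequenced. The authors trimmed the reads with cutadapt 2.7, mapped them to rn6 with STAR 2.5.2b and deposited raw counts per gene from featureCounts. Strand was not used, so reads over overlapping genes on opposite strands cannot be told apart. The file headers name an Ensembl annotation and the methods a UCSC annotation. A count matrix of the series was used only as an alternative. In it, 1 column could be tied to a group but not to a sample.

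The deposited counts were fitted with edgeR 4.0.16 under R 4.3.3, with DESeq2 1.42.0 as an alternative. Python 3.11.15 was used for the summaries and plots. The 8 DG libraries were filtered with filterByExpr, normalized by the upper quartile and compared with the quasi-likelihood test, with FDR by Benjamini-Hochberg over all 14800 genes. SE is the log2 fold change over the root of F. The difference between regions used all 32 libraries. SVZ METH 1 and 2 carry 1 library number, as do SVZ METH 3 and 4, and were kept as 4 samples. The counts of libraries of 1 number differed by a chi-square per degree of freedom of 133 and 115, far beyond sampling noise. Pairs of SVZ METH libraries of different numbers gave 16.4 to 144. This check cannot tell whether libraries of 1 number came from 1 animal. Separated groups do not overlap in CPM. The level between regions is the log2 of CA over the mean of NAc and SVZ (CPM + 1, saline).

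Members and lists (39 written by hand and 2 by symbol) were chosen with earlier results of these data known. Of the list entries, 20 symbols were not found. Named genes are the 12 highest and 12 lowest separated genes (unadjusted p under 0.05, mean of at least 1 CPM, no locus identifier), the 6 of lowest FDR, the first member of each list and up to 4 members by p, genes named by the study, and the 4 highest and 4 lowest differences between regions. Neurod6 was named after its values were seen, to check the tissue. No library pair of a DG group differed by less than sampling noise (chi-square per degree of freedom of at least 16.7). On simulated counts of the DG libraries with 14800 genes, 90 of 100 genes changed 2-fold and 100 of 100 changed 4-fold had an unadjusted p under 0.05, beside 4.86% of unchanged genes, and 16 and 71 of 100 passed an FDR of 0.01 with more than 2-fold. For the difference between regions, with 16122 genes, 86 and 96 of 100 had an unadjusted p under 0.05, beside 5.08%. Changes were placed only in genes above a minimum mean count. The simulated libraries held no run effect, no doubtful titles and no extra tissue markers, so these rates need not hold in the real libraries. The study removed RUVr factors from its counts. This was tried with 1 and 2 factors as covariates. Some members of the lists that meet the rule are not reported here.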

Additional observations from a re-analysis of the deposited data

Results flagged for a closer look

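A library lay far from the other 3 of its group in 32 of 276 groups examined (11.6%). The rule picks about 1 in 20 groups when values are independent. These groups are named genes and marker sums read in the same libraries, so that rate cannot be set against this share. DG Sal 3 was far above the other saline libraries in striatal markers (3123 CPM summed), Drd1 (123 CPM), Gpr6 (38.9 CPM), Penk (373 CPM), Hdac11 (280 CPM) and Gli1 (12.5 CPM), and far below them in Rps29 (11.1 CPM). DG Sal 4 was far above in choroid plexus markers (3276 CPM), Ttr (1842 CPM), habenular markers (331 CPM), Chrna3 (90.8 CPM) and Ccdc158 (9.57 CPM), and far below in Arhgef25 (52.0 CPM) and Itgam (11.6 CPM). DG METH 3 was far above in choroid plexus markers (8418 CPM), Ttr (5437 CPM), striatal markers (758 CPM) and ependymal markers (226 CPM), and far below in Sema5a (222 CPM).

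DG Sal 1 was the far high saline library for 5 genes, with Il16 at 26.7 CPM, Sema5a at 331 CPM, Plxna4 at 268 CPM, Wnt4 at 49.3 CPM and Chst9 at 8.11 CPM. DG Sal 2 was far above in Barx2 (9.03 CPM), Cacnb4 (247 CPM) and Dbp (232 CPM). Among METH libraries, DG METH 4 was far above in Cabp7 (329 CPM) and Slc9a4 (68.0 CPM), DG METH 2 was far below in Cpne4 (127 CPM) and Errfi1 (34.6 CPM), and DG METH 1 was far below in Lss (32.03 CPM). The METH effect differed between the DG and the mean of the other regions in 86 genes at an FDR under 0.05.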

How the results depend on the processing

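At an FDR under 0.01 with more than 2-fold change, DESeq2 called 120 genes and the likelihood ratio test 88, against 0 in the quasi-likelihood test. The other alternatives gave 0, including each left-out library (0 in all 8 fits). At an unadjusted p under 0.05, 2 RUVr factors gave 1671 higher genes and replicates 3 and 4 alone gave 600 higher and 433 lower, against 940 and 950. Leaving out 1 library gave 621 to 1056 higher and 604 to 1063 lower genes, the lowest without DG METH 4. At an FDR under 0.05 the quasi-likelihood count of 1 fell to 0 with TMM normalization, RNA integrity, the replicate block or replicates 1 and 2 against 3 and 4 as a covariate, no filter, either set of 2 replicates, the 3 libraries with extra markers left out, and 7 of 8 fits without 1 library. It became 29 without DG Sal 1, 208 in 1 fit of all 32 libraries and 13 and 367 with 1 and 2 RUVr factors. In the difference between regions, DESeq2 called 71 genes against 1. The count was 0 with replicates 1 and 2 against 3 and 4 as a covariate, with the replicate block, with the SVZ METH libraries of 1 number summed (chosen after seeing the data) and in replicates 3 and 4 alone, and 0 to 37 when 1 DG library was left out, with 37 without DG Sal 1.

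The replicate numbers in the titles are not stated to mark a shared animal or day, and the deviations of same-numbered libraries correlated at 0.380, 0.124, 0.218 and -0.215, so they were not taken as pairs. DG Sal 2 and DG Sal 4 correlated best with another number. With the replicate block the DG counts were 960 higher and 859 lower genes, with 0 past the study's threshold.

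Of 111 named genes with an unadjusted p under 0.05, 77 kept it and their direction in each of the 8 fits without 1 library. Reversed log2 fold changes were few. Within the run that holds both treatments (chosen after seeing the data, with DG Sal 3 as its 1 saline library) Chrna3 was 0.33, Dusp1 0.41, and Hlf 0.37. The METH libraries of that run are DG METH 1 and 2, whose library numbers go against the titles. Mki67 was -0.56 in the series matrix, and Penk ranged from -2.54 to 0.053 when 1 library was left out, positive without DG Sal 3. Ttr was -1.80 with 1 RUVr factor, -2.84 without the 3 libraries with extra markers, -1.19 with that covariate, -1.58 with the replicate block, -4.28 in replicates 1 and 2, and -5.57 (without DG METH 3) to 4.75 (without DG Sal 4) when 1 library was left out, against 1.46 in all 8. The causes were not tested. Of 492 list medians, 47 moved by more than the spread between libraries. Precision is limited by 4 libraries a group and a coefficient of variation of 0.311.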

Other observations

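Neuropeptide genes, which the report does not describe, were below 0 in 13 of 17 tested members, beside 7700 of all 14800 genes tested. At an unadjusted p under 0.05, 2 were lower (11.8%, beside 6.42% of all genes) and none was higher. Their median log2 fold change was -0.30 (-0.027 without DG Sal 3). Cartpt, the CART peptide, was 4.49, 5.88, 17.2 and 0.672 CPM in saline and 2.22, 1.61, 0.855 and 2.74 CPM after METH (-1.93 ± 0.80), and Crh, the stress hormone releasing factor, had -0.96 ± 0.42. Both groups overlapped, and DG Sal 3 was the highest saline library for Cartpt. Penk, the enkephalin precursor of striatal neurons, was 373 CPM in DG Sal 3 and 12.7 to 100.4 CPM elsewhere. Of 15 interferon response genes and 12 ERK feedback genes, none was past an unadjusted p of 0.05 in either direction in edgeR's quasi-likelihood test, with medians of 0.10 and -0.13.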
